A study of Rattus norvegicus with 10 samples.

Results

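The genes described here are 39 genes of collagens, matrix glycoproteins, proteoglycans, elastic fibres, matrix-crosslinking enzymes and myofibroblasts, followed in rat kidney across 5 diet groups. They were taken from a fixed list of gene symbols that was chosen with earlier results of these data known. Shares of members past the threshold, set beside those of all probe sets, therefore describe the list and do not test it. For each gene the probe set with the highest mean over all 10 arrays stood for it. Of the 39, 29 were measured, out of 14506 genes with a name and 29214 probe sets on the array, and each of the 29 had a single probe set. Col4a2, Col15a1, Col18a1, Lama4, Nid1, Col6a1, Col6a2, Col6a3, Tnc and Thbs2 had no probe set listed under their name and were not analysed here.

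The study asked how a choline-deficient diet injures the kidney and how fish oil protects against that injury. Male weanling Wistar rats were given 1 of 4 diets and were killed after 6 days under sodium pentobarbital. All groups share strain, sex, diet period and anaesthetic, and the labels name no engineered allele. Each array measured total RNA of 1 pool made from 3 rats, and each group had 2 pools. The control kidneys came from a diet with choline and vegetable oils (corn and hydrogenated oils). The deficient kidneys came from the same fats without choline and were not labelled necrotic, while the necrotic kidneys came from that deficient diet too and carry the word necrotic in their label. The control fish oil and deficient fish oil kidneys came from diets with menhaden oil as the lipid, with and without choline. How rats were assigned to the necrotic pools is not given in the sources used here. A pool averages its animals, so the spread between the 2 pools of a group is a spread between pools.

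The interstitial matrix of the kidney is normally sparse and is made by fibroblasts and by pericytes, the cells that wrap capillaries. After injury these cells can become myofibroblasts, which build smooth muscle actin filaments and secrete fibril-forming collagens. The secreted collagen chains assemble with fibronectin and proteoglycans, and lysyl oxidases then crosslink them into stable fibres. Transforming growth factor beta is a main driver of that programme, and several of its targets are among the genes followed here.

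The arrays had log2 medians between 7.28 and 7.43, and the 2 pools of a group correlated at r between 0.990 and 0.995 over all probe sets. Markers of kidney tubules were bright in the control pools, with proximal tubule markers averaging 13.09 and 13.10 log2 units per array and thick ascending limb markers 12.71 and 12.77. Adrenal markers averaged 5.67 and 5.79 there. Among the members, replicate 2 was above replicate 1 for 26 of 29 genes in the necrotic pools (median gap 0.27), for 24 in the deficient pools (median gap 0.22) and for 22 in the control fish oil pools. Differences between groups are given as log2 differences ± standard error from 1 limma fit over all 5 groups (n = 2 pools per group), with Benjamini-Hochberg adjusted p-values across the 29214 probe sets and a threshold of 0.05. The words rose and fell are kept for differences that passed it. In whole-kidney RNA, fewer cells of a type and less RNA per cell cannot be told apart.

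The widest set of differences lay between necrotic and control kidneys. Type I, III and V collagen chains, collagen XII, all 4 crosslinking enzymes and all 4 contractile and pericyte genes rose, while Sfrp2 and Mfap4 fell. Of 29 members 21 rose and 2 fell, against a rise of 10.2% of all probe sets and 13.3% of named genes and a fall of 10.7% of all probe sets and 14.8% of named genes. The members' median difference was 0.99, against 0.06 over all probe sets. The differences ran from -2.64 for Sfrp2 to 2.50 for Lox. Of all probe sets past the threshold 49.0% were higher in necrotic kidneys. Centring each array on its median moved the median of all probe sets by -0.11 and that share to 36.2%, and the member counts were 21 and 2 under it as well.

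**Figure D1:**
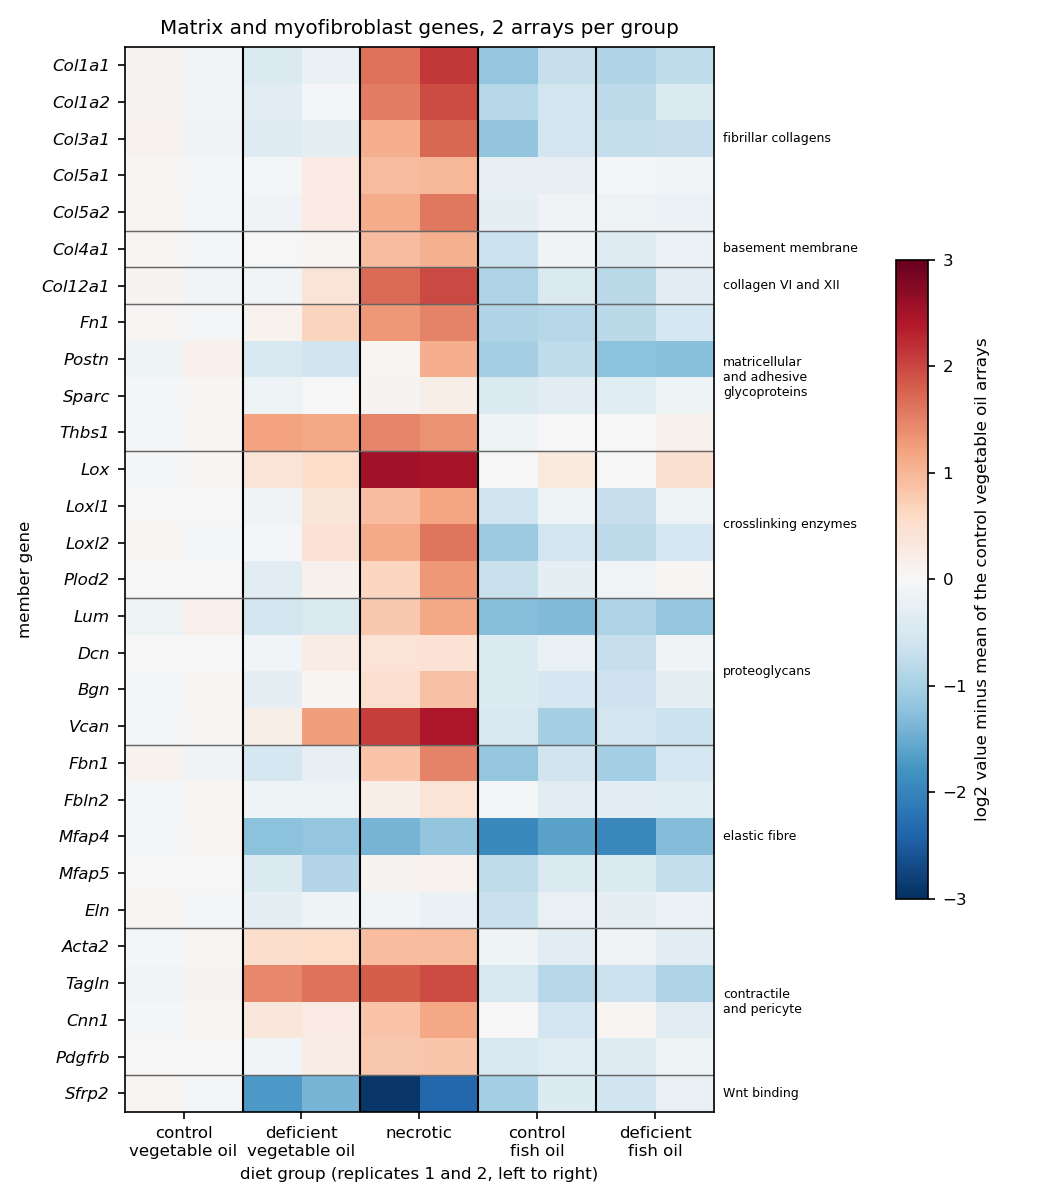
The heat map shows each of the 29 measured genes (rows, grouped by role) in each of the 10 arrays (columns, by diet group) as the log2 value minus the mean of the 2 control vegetable oil pools, on a colour scale from -3 to 3. The 2 necrotic columns are high for 21 genes that passed the threshold against control, and Sfrp2 is low there.

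The calls that did not hold in each refit with an array left out were those of Fbn1, Plod2, Loxl1, Bgn and Cnn1. Such a refit is less precise, so a lost call need not mean that 1 pool carried the difference. Fbn1 stood at 0.85 (adjusted p = 0.0867) without necrotic replicate 2, 1.26 (adjusted p = 0.0583) without control replicate 1 and 1.07 (adjusted p = 0.101) without control replicate 2. For Plod2 the same 3 omissions gave 0.65 (adjusted p = 0.0945), 0.99 (adjusted p = 0.0869) and 0.96 (adjusted p = 0.0983). For Loxl1 they gave 0.91 (adjusted p = 0.0756), 1.06 (adjusted p = 0.0693) and 1.04 (adjusted p = 0.0793). All 3 thus kept their direction but missed the threshold. Bgn missed it at 0.51 (adjusted p = 0.132), 0.63 (adjusted p = 0.14) and 0.76 (adjusted p = 0.0928). Cnn1 missed it at 0.86 (adjusted p = 0.0557) without necrotic replicate 2 and at 0.95 (adjusted p = 0.063) without control replicate 1. The other 18 calls passed under each of the 19 alternatives that tested them.

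Fibril-forming collagens were high in the necrotic pools alone. Col1a1 and Col1a2 encode the 2 chains of type I collagen, the main fibril protein of scar and tendon. Col1a1 measured 10.45 and 10.28 in the control pools, 9.95 and 10.16 in the deficient pools, 12.00 and 12.49 in the necrotic pools, 9.22 and 9.67 in the control fish oil pools and 9.47 and 9.61 in the deficient fish oil pools, all in log2 units. Col1a2 measured 9.91 and 9.74 in the control pools, 9.48 and 9.77 in the deficient pools, 11.35 and 11.79 in the necrotic pools, 8.97 and 9.27 in the control fish oil pools and 9.05 and 9.38 in the deficient fish oil pools. Both necrotic pools were above each of the other 8 for both chains, and the 4 fish oil pools were the lowest. Against control, Col1a1 rose by 1.88 ± 0.20, or 3.67-fold (adjusted p = 0.00044). Col1a2 rose by 1.75 ± 0.20 (adjusted p = 0.000571). Neither chain passed in the deficient pools, where the differences from control were -0.32 ± 0.20 (adjusted p = 0.486) and -0.20 ± 0.20 (adjusted p = 0.659).

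Type III collagen forms fibrils together with type I in soft tissue. Col3a1 measured 9.03 and 8.81 in the control pools, 8.53 and 8.65 in the deficient pools, 10.01 and 10.64 in the necrotic pools, 7.74 and 8.38 in the control fish oil pools and 8.21 and 8.22 in the deficient fish oil pools. It rose by 1.40 ± 0.25 (adjusted p = 0.00448) in necrotic against control kidneys, and the necrotic pools did not overlap with any other group. Col5a1 and Col5a2 encode chains of type V collagen, which starts new fibrils and sets their diameter. Col5a1 measured 7.92 and 7.86 in the control pools, 7.85 and 8.13 in the deficient pools, 8.84 and 8.88 in the necrotic pools, 7.64 and 7.65 in the control fish oil pools and 7.86 and 7.82 in the deficient fish oil pools. Col5a2 measured 7.76 and 7.66 in the control pools, 7.61 and 7.95 in the deficient pools, 8.84 and 9.30 in the necrotic pools, 7.44 and 7.60 in the control fish oil pools and 7.57 and 7.54 in the deficient fish oil pools. The 8 pools outside the necrotic group lay close together for both chains. Col5a1 rose by 0.97 ± 0.12 (adjusted p = 0.000838) and Col5a2 by 1.36 ± 0.18 (adjusted p = 0.00109).

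Collagen XII sits on the surface of fibrils and links them to their surroundings. Col12a1 measured 10.36 and 10.20 in the control pools, 10.19 and 10.67 in the deficient pools, 11.99 and 12.25 in the necrotic pools, 9.36 and 9.84 in the control fish oil pools and 9.46 and 9.95 in the deficient fish oil pools. The necrotic pools were more than 1 log2 unit above the nearest other pool. Col12a1 rose by 1.84 ± 0.24, or 3.59-fold (adjusted p = 0.00105). Col4a1 encodes a chain of type IV collagen, the network of basement membranes under tubules and capillaries. Col4a1 measured 9.58 and 9.53 in the control pools, 9.54 and 9.63 in the deficient pools, 10.48 and 10.63 in the necrotic pools, 8.91 and 9.45 in the control fish oil pools and 9.17 and 9.39 in the deficient fish oil pools. It rose by 0.99 ± 0.18 (adjusted p = 0.00477), and again both necrotic pools were above the rest.

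The 4 enzymes that modify or crosslink collagen all rose in necrotic kidneys. Lox encodes lysyl oxidase, which oxidises lysines of collagen and elastin so that chains bond covalently. Lox measured 9.04 and 9.09 in the control pools, 9.45 and 9.61 in the deficient pools, 11.59 and 11.55 in the necrotic pools, 9.06 and 9.36 in the control fish oil pools and 9.06 and 9.52 in the deficient fish oil pools. The necrotic pools stood well above every other pool, and the other 8 overlapped across diets. Lox rose by 2.50 ± 0.17, or 5.66-fold (adjusted p = 6.16e-05), the largest rise among the 29 genes. Loxl2, a lysyl oxidase that acts on type IV collagen among others, came next among the enzymes. Loxl2 measured 9.63 and 9.51 in the control pools, 9.52 and 10.01 in the deficient pools, 10.70 and 11.18 in the necrotic pools, 8.49 and 9.03 in the control fish oil pools and 8.79 and 9.05 in the deficient fish oil pools. It rose by 1.37 ± 0.24 (adjusted p = 0.00481), and all 4 fish oil pools were below all vegetable oil pools.

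Loxl1 is best known for crosslinking elastin. Loxl1 measured 10.78 and 10.76 in the control pools, 10.65 and 11.13 in the deficient pools, 11.68 and 11.96 in the necrotic pools, 10.17 and 10.64 in the control fish oil pools and 10.09 and 10.61 in the deficient fish oil pools. It rose by 1.05 ± 0.24 (adjusted p = 0.0145). Plod2 hydroxylates lysines in collagen ends, which makes crosslinks more stable. Plod2 measured 9.98 and 9.96 in the control pools, 9.63 and 10.09 in the deficient pools, 10.62 and 11.27 in the necrotic pools, 9.30 and 9.68 in the control fish oil pools and 9.89 and 9.995 in the deficient fish oil pools. It rose by 0.97 ± 0.24 (adjusted p = 0.0197). For both enzymes the lower necrotic pool was above each other pool, by a smaller gap than for Lox.

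Among adhesive glycoproteins, Fn1 and Thbs1 rose in necrotic kidneys, whereas Postn and Sparc did not pass. Fn1 encodes fibronectin, the scaffold on which collagen fibrils are laid down. Fn1 measured 11.75 and 11.69 in the control pools, 11.82 and 12.39 in the deficient pools, 13.02 and 13.21 in the necrotic pools, 10.81 and 10.87 in the control fish oil pools and 10.91 and 11.20 in the deficient fish oil pools. Necrotic pools were highest, deficient replicate 2 was above deficient replicate 1 by more than the necrotic pools differed, and the fish oil pools were lowest. Fn1 rose by 1.39 ± 0.19 (adjusted p = 0.00134). Thbs1 encodes thrombospondin 1, which binds cells and matrix and can activate latent transforming growth factor beta. Thbs1 measured 11.41 and 11.54 in the control pools, 12.68 and 12.65 in the deficient pools, 12.95 and 12.82 in the necrotic pools, 11.36 and 11.48 in the control fish oil pools and 11.49 and 11.60 in the deficient fish oil pools. Its values formed 2 levels, with both necrotic and both deficient pools high and the other 6 low. Thbs1 rose by 1.41 ± 0.11, or 2.66-fold (adjusted p = 0.000128).

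Postn encodes periostin, a matricellular protein of healing tissue. Postn measured 6.64 and 6.95 in the control pools, 6.34 and 6.19 in the deficient pools, 6.85 and 7.90 in the necrotic pools, 5.80 and 6.04 in the control fish oil pools and 5.56 and 5.55 in the deficient fish oil pools. The 2 necrotic pools were further apart than they were for any other member, and 1 of them lay between the control pools. The difference from control was 0.58 ± 0.29 (adjusted p = 0.206). Sparc encodes a collagen-binding glycoprotein. Sparc measured 13.44 and 13.53 in the control pools, 13.33 and 13.47 in the deficient pools, 13.57 and 13.67 in the necrotic pools, 13.05 and 13.17 in the control fish oil pools and 13.13 and 13.33 in the deficient fish oil pools. All 10 pools were bright and close together, and the necrotic difference was 0.13 ± 0.12 (adjusted p = 0.498).

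Proteoglycans carry sugar chains and space the collagen fibrils. Vcan encodes versican, a large proteoglycan that binds hyaluronan in provisional matrix. Vcan measured 8.12 and 8.19 in the control pools, 8.33 and 9.42 in the deficient pools, 10.22 and 10.59 in the necrotic pools, 7.69 and 7.15 in the control fish oil pools and 7.60 and 7.51 in the deficient fish oil pools. Necrotic pools were highest, deficient replicate 2 lay between them and the rest, and the fish oil pools were lowest. Vcan rose by 2.25 ± 0.32, or 4.75-fold (adjusted p = 0.00175). Lum encodes lumican, a small proteoglycan that sits on fibrils. Lum measured 6.48 and 6.80 in the control pools, 6.10 and 6.20 in the deficient pools, 7.44 and 7.79 in the necrotic pools, 5.36 and 5.32 in the control fish oil pools and 5.71 and 5.49 in the deficient fish oil pools. The 4 fish oil pools were the dimmest, and the control pools were above the deficient pools. Lum rose by 0.98 ± 0.16 (adjusted p = 0.00345).

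Bgn encodes biglycan, which is also released as a danger signal when matrix is damaged. Bgn measured 12.55 and 12.67 in the control pools, 12.31 and 12.66 in the deficient pools, 13.13 and 13.49 in the necrotic pools, 12.20 and 12.11 in the control fish oil pools and 11.99 and 12.35 in the deficient fish oil pools. It rose by 0.70 ± 0.18 (adjusted p = 0.0273), with both necrotic pools on top. Dcn encodes decorin, which can hold transforming growth factor beta in the matrix. Its difference from control was 0.41 ± 0.19 (adjusted p = 0.177), and its 10 values ran only from 12.16 to 13.26.

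The 5 elastic fibre genes did not move as a group. Fbn1 encodes fibrillin 1, the rod of the microfibrils around elastin. Fbn1 measured 9.60 and 9.41 in the control pools, 8.98 and 9.27 in the deficient pools, 10.36 and 10.99 in the necrotic pools, 8.34 and 8.91 in the control fish oil pools and 8.50 and 8.99 in the deficient fish oil pools. Necrotic pools were highest, the 4 fish oil pools and deficient replicate 1 were lowest, and Fbn1 rose by 1.17 ± 0.27 (adjusted p = 0.0163). Mfap4 encodes a microfibril-associated protein that binds elastin and collagen. Mfap4 measured 10.69 and 10.76 in the control pools, 9.48 and 9.57 in the deficient pools, 9.33 and 9.54 in the necrotic pools, 8.80 and 9.12 in the control fish oil pools and 8.79 and 9.42 in the deficient fish oil pools. The 2 control pools stood above all 8 others, whereas for the collagens the necrotic pools did. Mfap4 fell by 1.29 ± 0.21 in necrotic kidneys (adjusted p = 0.0029).

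Eln encodes elastin itself, and its difference was -0.14 ± 0.16 (adjusted p = 0.588). Mfap5, a microfibril glycoprotein, was at 0.09 ± 0.19 (adjusted p = 0.765). Fbln2, which encodes fibulin 2, was at 0.31 ± 0.13 (adjusted p = 0.131). None of these 3 passed against control.

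Acta2, Tagln and Cnn1 were contractile genes in which the deficient pools lay between the control and the necrotic pools. Acta2 encodes smooth muscle actin, the usual marker of myofibroblasts. Acta2 measured 12.78 and 12.87 in the control pools, 13.35 and 13.38 in the deficient pools, 13.75 and 13.76 in the necrotic pools, 12.69 and 12.49 in the control fish oil pools and 12.71 and 12.48 in the deficient fish oil pools. The values fell into an order of necrotic, then deficient, then all others, with no overlap between the 3. Acta2 rose by 0.93 ± 0.13, or 1.91-fold (adjusted p = 0.00132). Tagln encodes transgelin, an actin-binding protein of smooth muscle. Tagln measured 10.63 and 10.79 in the control pools, 12.14 and 12.35 in the deficient pools, 12.51 and 12.66 in the necrotic pools, 10.22 and 9.85 in the control fish oil pools and 10.06 and 9.79 in the deficient fish oil pools. Both deficient pools were nearer to the necrotic pools than to the control pools. Tagln rose by 1.88 ± 0.16, or 3.67-fold (adjusted p = 0.000179).

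Cnn1 encodes calponin 1, which restrains actin and myosin in smooth muscle. Cnn1 measured 8.12 and 8.24 in the control pools, 8.53 and 8.43 in the deficient pools, 9.05 and 9.33 in the necrotic pools, 8.16 and 7.62 in the control fish oil pools and 8.24 and 7.85 in the deficient fish oil pools. It rose by 1.01 ± 0.21 (adjusted p = 0.00917). In both fish oil groups replicate 1 was above replicate 2 for Cnn1, Acta2 and Tagln, and below it for Pdgfrb. Actg2, an actin of visceral smooth muscle, went the same way as Cnn1. It was at 9.10 and 7.36 in the deficient fish oil pools and 8.92 and 7.94 in the control fish oil pools. The mean of 4 urothelial markers did so too, at 8.28 and 7.56 in the deficient fish oil pools and 8.27 and 7.78 in the control fish oil pools. In the necrotic pools Actg2 went the other way from Cnn1, at 9.73 in replicate 1 and 8.84 in replicate 2. The urothelial mean was 8.38 and 7.52 in these necrotic pools. Whether the gaps in Actg2 or in the urothelial markers bear on Cnn1, Acta2 or Tagln was not tested. Pdgfrb encodes the platelet-derived growth factor receptor of pericytes. Pdgfrb measured 10.69 and 10.71 in the control pools, 10.63 and 10.91 in the deficient pools, 11.50 and 11.52 in the necrotic pools, 10.22 and 10.33 in the control fish oil pools and 10.32 and 10.58 in the deficient fish oil pools. It rose by 0.81 ± 0.14 (adjusted p = 0.00391), and the necrotic pools were the highest of the 10.

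Sfrp2 encodes a secreted protein that binds Wnt ligands. Sfrp2 measured 10.80 and 10.66 in the control pools, 9.01 and 9.33 in the deficient pools, 7.80 and 8.38 in the necrotic pools, 9.71 and 10.33 in the control fish oil pools and 10.14 and 10.51 in the deficient fish oil pools. The necrotic pools were lowest, the deficient pools came next and the other 6 pools were on top, with no overlap between the 3. Sfrp2 fell by 2.64 ± 0.26 in necrotic kidneys (adjusted p = 0.000286).

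**Figure D2:**
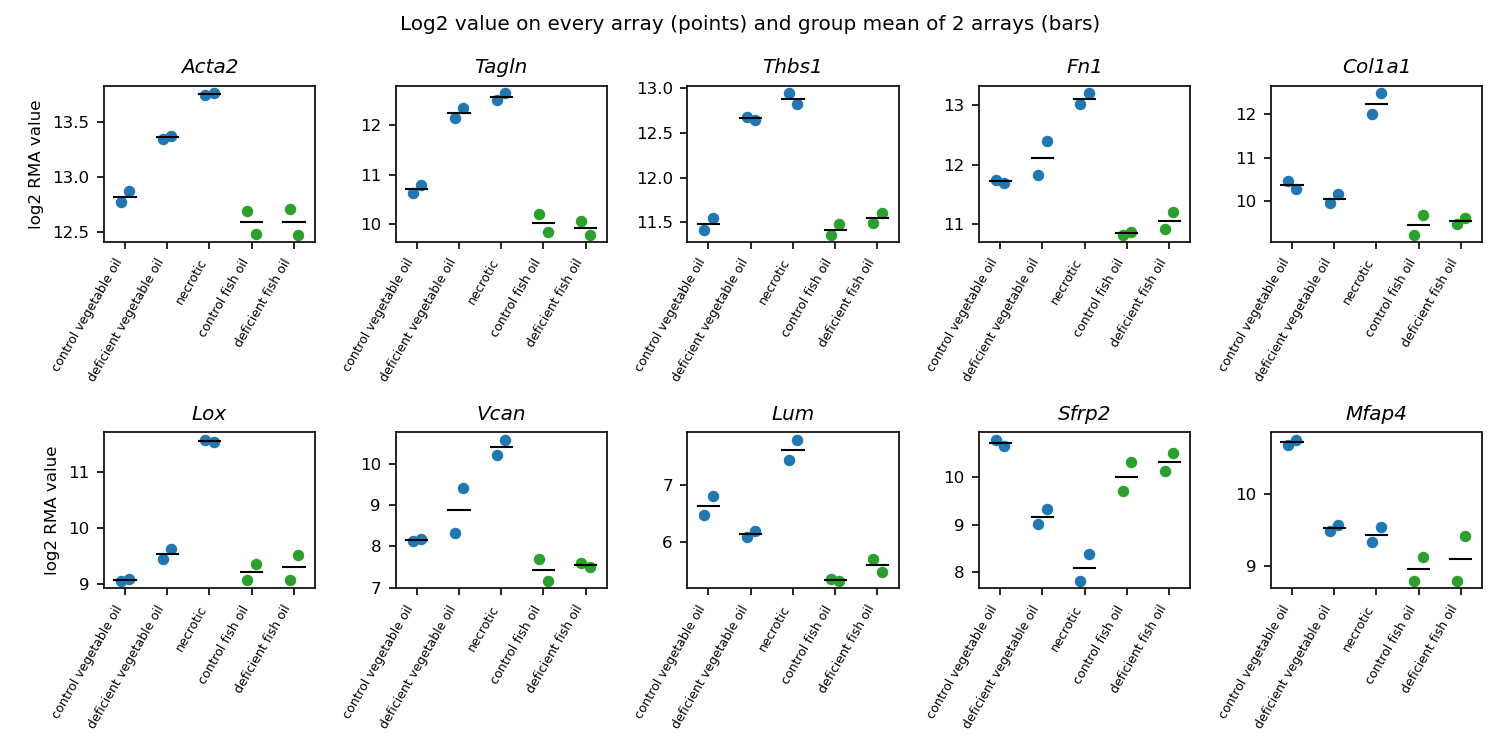
Each of the 10 panels plots the log2 value (vertical axis, own range) of a gene in the 2 pools (points, blue for vegetable oil and green for fish oil) of each diet group (horizontal axis), with black bars at the group means. Col1a1 and Lox are high in the necrotic pools alone, Tagln and Thbs1 in the necrotic and deficient pools, and Sfrp2 falls from control to deficient to necrotic.

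The deficient kidneys that were not called necrotic differed from control in few of these genes. Tagln and Thbs1 rose, Sfrp2 and Mfap4 fell, and no collagen or crosslinking enzyme passed. That is 2 of 29 members higher, against 0.893% of all probe sets and 1.45% of named genes, and 2 lower, against 0.236% of all probe sets and 0.303% of named genes. The members' median difference was 0.02 and that of all probe sets 0.01. Tagln rose by 1.54 ± 0.16, or 2.9-fold (adjusted p = 0.00525), and Thbs1 by 1.19 ± 0.11, or 2.28-fold (adjusted p = 0.00384). Both deficient pools were above both control pools for each. Sfrp2 fell by 1.56 ± 0.26 (adjusted p = 0.0302) and Mfap4 by 1.20 ± 0.21 (adjusted p = 0.0347). Acta2 was higher in both deficient pools than in both control pools, at 0.54 ± 0.13, and missed the threshold (adjusted p = 0.0976). Whether Acta2 passed turned on the processing. It passed with probe sets below the 50th percentile of the mean left out (adjusted p = 0.0413) and with a trended and robust prior (0.0308). With the mean of all probe sets of a gene it passed too (0.0398). Vcan was at 0.72 ± 0.32 (adjusted p = 0.338) and Fn1 at 0.39 ± 0.19 (adjusted p = 0.373), each with a wide gap between the 2 deficient pools.

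Of these 4 calls 0 held in every refit with an array left out. Without control replicate 1 none passed, with Thbs1 at 1.12 (adjusted p = 0.0531), Tagln at 1.45 (adjusted p = 0.0694), Sfrp2 at -1.49 (adjusted p = 0.203) and Mfap4 at -1.23 (adjusted p = 0.193). Without control replicate 2 Thbs1 alone passed, and Tagln was at 1.62 (adjusted p = 0.0537), Sfrp2 at -1.63 (adjusted p = 0.183) and Mfap4 at -1.16 (adjusted p = 0.244). Tagln and Thbs1 missed by little and Sfrp2 and Mfap4 by more. Without deficient replicate 1 Sfrp2 was at -1.40 (adjusted p = 0.072) and Mfap4 at -1.15 (adjusted p = 0.0736). Without deficient replicate 2 they were at -1.72 (adjusted p = 0.0997) and -1.24 (adjusted p = 0.157). Mfap4 also missed at -1.20 (adjusted p = 0.055) without either necrotic pool and at -1.20 (adjusted p = 0.051) without either control fish oil pool. The direction of all 4 was the same each time.

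Between the deficient and the necrotic kidneys most collagen genes rose. Of 29 members 19 were higher in the necrotic pools, against 4.71% of all probe sets and 6.41% of named genes, and Sfrp2 alone was lower, against 5.08% of all probe sets and 7.8% of named genes. The members' median was 0.93 and that of all probe sets 0.02. Col1a1 rose by 2.19 ± 0.20 (adjusted p = 0.000638), Lox by 2.04 ± 0.17 (adjusted p = 0.000391) and Col1a2 by 1.95 ± 0.20 (adjusted p = 0.000903). Col3a1 rose by 1.74 ± 0.25 (adjusted p = 0.00391) and Col12a1 by 1.69 ± 0.24 (adjusted p = 0.00381). Thbs1 and Tagln, which were already higher in the deficient pools, were at 0.22 ± 0.11 (adjusted p = 0.292) and 0.34 ± 0.16 (adjusted p = 0.261). Postn and Mfap5 passed here although they did not against control, at 1.10 ± 0.29 (adjusted p = 0.0469) and 0.74 ± 0.19 (adjusted p = 0.0407). Neither call held under another normalization, with adjusted p of 0.0662 and 0.0742 after median centring, 0.0695 and 0.0733 after quantile normalization and 0.0852 and 0.0697 after cyclic loess. Fitted on the arrays of these 2 groups alone they were at 0.169 and 0.13, and 9 of the 20 calls passed. With a replicate block Mfap5 was at 0.0554. Acta2, Cnn1 and Fbln2 missed the threshold here but passed with the mean of all probe sets of a gene (adjusted p = 0.0479, 0.0285 and 0.0296). Acta2 and Cnn1 also passed with a trended and robust prior (0.0338 and 0.0464).

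Not all of the 20 calls held in each refit with an array left out, and some ended without a pool of another group. Without necrotic replicate 2 there were 9 calls, and those that ended were Loxl2, Col4a1, Pdgfrb, Postn, Vcan, Fbn1, Mfap5, Plod2, Loxl1, Fn1 and Bgn (log2 differences of 0.94, 0.90, 0.73, 0.58, 1.34, 1.23, 0.72, 0.75, 0.79, 0.92 and 0.64, adjusted p between 0.0592 and 0.19). Without deficient replicate 1 there were also 9, and those that ended were Loxl2, Col4a1, Pdgfrb, Postn, Sfrp2, Vcan, Fbn1, Plod2, Loxl1, Fn1 and Bgn (log2 differences of 0.93, 0.92, 0.60, 1.18, -1.24, 0.98, 1.40, 0.85, 0.69, 0.72 and 0.65, adjusted p between 0.0619 and 0.24). Without necrotic replicate 1 the calls of Pdgfrb, Sfrp2, Vcan, Mfap5 and Loxl1 (log2 differences of 0.75, -0.79, 1.71, 0.76 and 1.07, adjusted p between 0.0503 and 0.155) ended. Without deficient replicate 2 they were Postn, Sfrp2 and Mfap5 (log2 differences of 1.03, -0.92 and 0.50, adjusted p between 0.12 and 0.142). The genes lost here were Postn, Mfap5 and Sfrp2, the last of which was lower and not higher in necrotic pools. Leaving out either control pool ended Postn, Sfrp2, Mfap5 and Loxl1 (log2 differences of 1.10, -1.08, 0.74 and 0.93, adjusted p between 0.0586 and 0.0752). Leaving out either deficient fish oil pool ended Postn and Mfap5 (log2 differences of 1.10 and 0.74, adjusted p between 0.0521 and 0.0729), and either control fish oil pool Postn, at 1.10 (adjusted p = 0.0664). The type I, III, V and XII collagens and Lox passed in each of these refits, as did Lum.

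The second step was set against the first as a signed difference, necrotic minus deficient less deficient minus control. A positive value means a higher second step and not a longer one, since a fall in the first step adds to it. This contrast was chosen after the values had been seen, and the deficient pools enter both steps. Of 29 members 3 passed with a positive value, against 0.161% of all probe sets. For these 3 the deficient mean lay below the control mean, without passing, which adds to their values. Col1a1 was at 2.51 ± 0.35 (adjusted p = 0.0252), Col1a2 at 2.15 ± 0.34 (adjusted p = 0.0379) and Lum at 1.96 ± 0.28 (adjusted p = 0.0265). Tagln and Thbs1 lay on the other side, at -1.20 ± 0.29 (adjusted p = 0.119) and -0.97 ± 0.20 (adjusted p = 0.0806), and did not pass. The count was 0 without deficient replicate 1, where Col1a1 was at 2.29 (adjusted p = 0.158), Col1a2 at 1.86 (adjusted p = 0.212) and Lum at 1.87 (adjusted p = 0.157). It was 0 without control replicate 1, where they were at 2.42, 2.07 and 2.12 (adjusted p = 0.0966, 0.143 and 0.069), and 0 without control replicate 2, where they were at 2.59, 2.23 and 1.80 (adjusted p = 0.0891, 0.122 and 0.101). All 3 calls ended in each of these refits. Col1a1 alone passed without necrotic replicate 2 and without either control fish oil pool. Without necrotic replicate 2 Col1a2 was at 1.93 (adjusted p = 0.0763) and Lum at 1.79 (adjusted p = 0.0542), and without either control fish oil pool they had adjusted p = 0.0609 and 0.0546. Without either deficient fish oil pool Col1a2 ended (adjusted p = 0.0574), and without deficient replicate 2 Lum did, at 2.06 (adjusted p = 0.0516). Without necrotic replicate 1 the count was 5, with Postn at 2.16 and Col3a1 at 2.38 added.

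**Figure D3:**
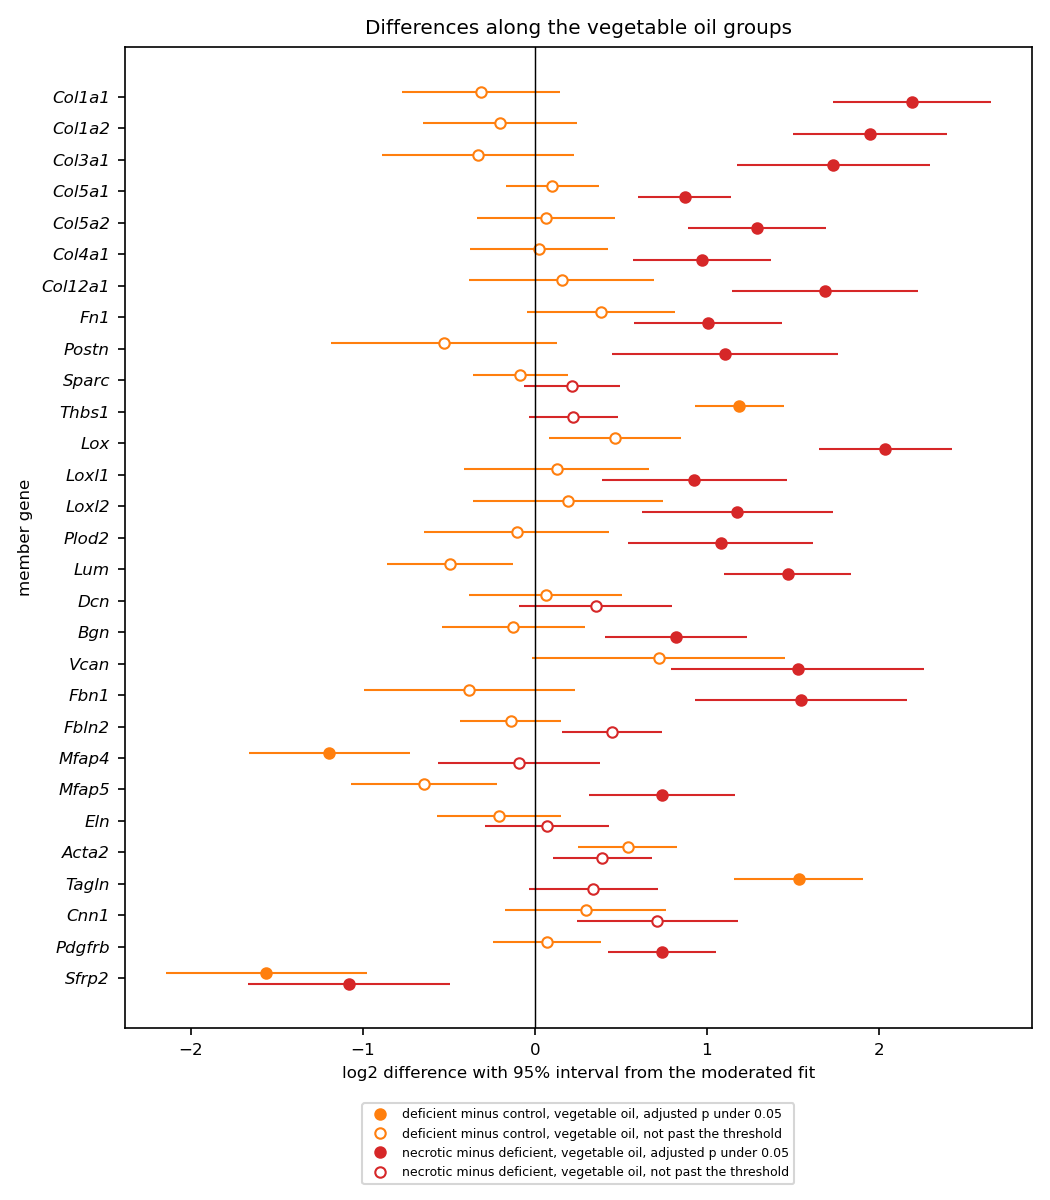
For each of the 29 genes (vertical axis) the plot gives the log2 difference with its 95% interval (horizontal axis) for deficient minus control kidneys (orange) and necrotic minus deficient kidneys (red), all on vegetable oil, with filled points past the threshold. Orange points are filled for Thbs1, Tagln, Mfap4 and Sfrp2, and red points for 19 genes to the right of 0 and for Sfrp2 to the left.

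The promoters of 4 genes show the sequence next to the start site of members from both patterns. RefSeq promoters of the rat build GRCr8 matched 17 of the 29 measured members. Acta2 (chr1:241172454-241172753 on the minus strand) and Thbs1 (chr3:125510000-125510299 on the plus strand) stand for genes whose deficient pools were above the control pools. Col1a2 (chr4:33518307-33518606 on the plus strand) and Lum (chr7:34245456-34245755 on the plus strand) stand for genes in which the necrotic pools alone were above control. Each window has 300 bases, is written 5′ to 3′ on the gene's strand and carries the motif matches in capitals.
Acta2: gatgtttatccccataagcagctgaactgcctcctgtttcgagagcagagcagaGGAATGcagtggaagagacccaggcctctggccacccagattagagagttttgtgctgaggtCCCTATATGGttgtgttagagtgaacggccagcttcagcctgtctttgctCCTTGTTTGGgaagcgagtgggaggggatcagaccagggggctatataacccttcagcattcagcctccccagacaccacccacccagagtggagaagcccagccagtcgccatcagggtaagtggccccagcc
Thbs1: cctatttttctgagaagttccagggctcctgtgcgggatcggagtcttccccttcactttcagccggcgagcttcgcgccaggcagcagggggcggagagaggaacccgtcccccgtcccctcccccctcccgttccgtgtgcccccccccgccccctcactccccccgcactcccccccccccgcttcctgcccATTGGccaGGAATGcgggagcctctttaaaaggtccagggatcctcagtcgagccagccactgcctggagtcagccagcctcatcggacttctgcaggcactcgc
Col1a2: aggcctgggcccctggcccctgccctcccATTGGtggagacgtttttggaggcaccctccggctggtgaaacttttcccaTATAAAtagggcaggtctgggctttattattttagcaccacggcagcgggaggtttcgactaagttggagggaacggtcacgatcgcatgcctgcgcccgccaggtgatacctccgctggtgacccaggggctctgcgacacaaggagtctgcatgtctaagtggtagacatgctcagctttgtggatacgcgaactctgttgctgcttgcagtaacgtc
Lum: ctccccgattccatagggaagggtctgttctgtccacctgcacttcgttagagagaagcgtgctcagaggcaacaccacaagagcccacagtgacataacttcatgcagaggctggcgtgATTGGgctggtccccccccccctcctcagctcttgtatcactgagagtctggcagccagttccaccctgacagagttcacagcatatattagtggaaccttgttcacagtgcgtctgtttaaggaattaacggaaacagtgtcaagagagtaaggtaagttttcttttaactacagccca
The motifs were searched on both strands. The CArG box is bound by serum response factor, a regulator of contractile genes, and no member window held one, against 1.64% of all 33469 promoters. A CArG-like box, which allows 1 inner base other than A or T, was added after that result. Acta2 held CCCTATATGG from -134 to -125 and CCTTGTTTGG from -84 to -75, counted from the start site. It was the only 1 of the 17 member windows with such a box, and 8.1% of all promoters held it. GGAATG, the site of TEAD factors, was at -196 to -191 in Acta2 and at -47 to -42 in Thbs1, and 4 of the 17 member windows and 14.2% of all promoters held it. The windows of Loxl1 (-186 to -181) and Sparc (-33 to -28) held it too, and the deficient and control pools overlapped for both genes. The site thus did not mark 1 of the patterns alone. TATAAA was at -170 to -165 in Col1a2 and was held by 2 member windows and 14.2% of all promoters. CCAAT was at -55 to -51 in Thbs1, -221 to -217 in Col1a2 and -130 to -126 in Lum, each time on the other strand as ATTGG, and 7 member windows and 37.5% of all promoters held it. In Thbs1 the CCAAT and GGAATG matches are separate and do not overlap. A match describes these letters only.

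On fish oil, removing choline changed none of these genes past the threshold. The limma fit called 0 of 29 members and 0 of 29214 probe sets (0.0%), and 0 members and 3.55% of all probe sets had an unadjusted p under 0.05. The differences ran from -0.37 for Postn to 0.45 for Plod2. The 95% interval was -0.36 to 0.56 for Col1a1, -0.30 to 0.47 for Lox, -0.28 to 0.29 for Acta2, -0.48 to 0.27 for Tagln and -0.13 to 0.39 for Thbs1. Of the 21 members that rose in necrotic kidneys on vegetable oil, 20 had a fish oil interval wholly below that estimated rise. The exception was Plod2, whose interval of -0.09 to 0.99 reached past its rise of 0.97. The 21 were picked by that rise, whose own error does not enter here, so the count of 20 is not a test. The interaction with the necrotic kidneys, which takes that error in, called 11 members higher.

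Differences from control on vegetable oil were set against deficient minus control on fish oil by an interaction, with the necrotic or the deficient kidneys. No fish oil pool is labelled necrotic, so with the necrotic kidneys the necrotic state and the oil cannot be told apart. Set against the necrotic kidneys, 11 of 29 members had a higher value on vegetable oil, against 3.82% of all probe sets and 5.32% of named genes, and 2 had a lower one, against 4.9% of all probe sets and 7.59% of named genes. Lox differed by 2.42 ± 0.24 (adjusted p = 0.00114), Vcan by 2.11 ± 0.46 (adjusted p = 0.0244), Tagln by 1.98 ± 0.23 (adjusted p = 0.00216), Col1a1 by 1.78 ± 0.28 (adjusted p = 0.00771) and Sfrp2 by -2.95 ± 0.36 (adjusted p = 0.00269). Centring each array on its median moved the share of higher calls among all called probe sets from 43.8% to 32.9% and left the member counts at 11 and 2. They were 15 and 2 after quantile normalization and 12 and 2 after cyclic loess. Col3a1, Col4a1, Loxl1, Loxl2, Lum and Pdgfrb were not called in the main fit. With the mean of all probe sets of a gene they passed as higher (adjusted p between 0.0258 and 0.047). Set against the deficient kidneys that were not necrotic, 0 of 29 members passed in the limma fit, against 0.103% of all probe sets and 0.172% of named genes. An unadjusted p under 0.05 was reached by 7 members and by 9.9% of all probe sets. Tagln was nearest at 1.64 ± 0.23 (adjusted p = 0.059), followed by Thbs1 at 1.06 ± 0.16 (adjusted p = 0.0679). Whether these 2 genes passed turned on the processing. Tagln passed with median centring (adjusted p = 0.0494). Both passed with probe sets below the 25th percentile of the mean left out (adjusted p = 0.0366 and 0.0418), with those below the 50th left out (0.0219 for each), with a trended and robust prior (0.0181 and 0.0155) and with the mean of all probe sets of a gene (0.0123 and 0.018). Sfrp2 passed only in the last of these, at -1.87 (adjusted p = 0.0409). In the other 14 alternatives 0 members passed.

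Of the 13 interaction calls with the necrotic kidneys, 6 passed in each refit with an array left out, namely those of Col1a1, Col1a2, Thbs1, Lox, Tagln and Sfrp2. The count was 6 without control replicate 1, which ended Mfap4, Vcan, Col5a1, Col12a1, Col5a2, Fn1 and Acta2 (log2 differences of -1.47, 2.08, 0.81, 1.82, 1.37, 1.21 and 0.88, adjusted p between 0.0517 and 0.0872). It was 6 without control replicate 2, which ended Mfap4, Vcan, Col5a1, Col12a1, Col5a2, Fn1 and Acta2 (log2 differences of -1.39, 2.15, 0.75, 1.65, 1.27, 1.15 and 0.97, adjusted p between 0.0586 and 0.108). It was 8 without deficient fish oil replicate 1, which ended Vcan, Col5a1, Col12a1, Col5a2 and Fn1 (log2 differences of 2.16, 0.80, 1.49, 1.33 and 1.04, adjusted p between 0.0507 and 0.104). It was 8 without deficient fish oil replicate 2, which ended Vcan, Col5a1, Col5a2, Fn1 and Acta2 (log2 differences of 2.07, 0.76, 1.31, 1.33 and 0.81, adjusted p between 0.0526 and 0.0936). Vcan, Col5a1, Col5a2 and Fn1 were lost in each of these 4 refits. Without necrotic replicate 1 the calls of Mfap4, Col5a1 and Fn1 (log2 differences of -1.33, 0.80 and 1.27, adjusted p between 0.0537 and 0.0613) ended. Without necrotic replicate 2 those of Vcan, Col5a1, Col12a1 and Fn1 (log2 differences of 1.93, 0.76, 1.60 and 1.09, adjusted p between 0.0526 and 0.0811) did. Without control fish oil replicate 1 those of Mfap4, Vcan, Col5a1 and Fn1 (log2 differences of -1.27, 1.84, 0.79 and 1.21, adjusted p between 0.0622 and 0.0786) ended, and without replicate 2 those of Col5a1, Col12a1, Col5a2 and Fn1 (log2 differences of 0.77, 1.50, 1.24 and 1.15, adjusted p between 0.0542 and 0.0844).

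With choline in the diet, most members had lower values on fish oil, though few passed the threshold. Among rats that received choline, 28 of 29 members were lower on fish oil than on vegetable oil, the exception being Lox at 0.14. The members' median was -0.48, against 0.03 over all probe sets. Past the threshold 2 members fell, against 0.0993% of all probe sets and 0.131% of named genes, and 0 rose, against 0.0856% of all probe sets and 0.124% of named genes. An unadjusted p under 0.05 was reached by 17 of 29 members and by 12.4% of all probe sets. Mfap4 fell by 1.76 ± 0.21 (adjusted p = 0.0196) and Lum by 1.30 ± 0.16 (adjusted p = 0.0277). Both control pools on vegetable oil were above all 4 fish oil pools for each. Col1a1 was at -0.93 ± 0.20 (adjusted p = 0.143) and Fn1 at -0.88 ± 0.19 (adjusted p = 0.142).

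Neither call held in each refit with an array left out, though both genes stayed lower on fish oil. Without control replicate 1 Mfap4 was at -1.80 (adjusted p = 0.172) and Lum at -1.46 (adjusted p = 0.101). Without control replicate 2 they were at -1.73 (adjusted p = 0.203) and -1.14 (adjusted p = 0.234). Both missed the threshold there. Without control fish oil replicate 1 they were at -1.60 (adjusted p = 0.146) and -1.32 (adjusted p = 0.159). Without control fish oil replicate 2 they were at -1.93 (adjusted p = 0.0881) and -1.28 (adjusted p = 0.142). Leaving out either deficient fish oil pool ended Lum alone, at -1.30 (adjusted p = 0.05).

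Among choline-deficient kidneys that were not necrotic, 2 contractile genes and 2 glycoproteins fell on fish oil. Acta2, Tagln, Thbs1 and Fn1 fell, 4 of 29 members against 1.39% of all probe sets and 2.27% of named genes, and 0 rose, against 0.346% of all probe sets and 0.517% of named genes. Tagln fell by 2.32 ± 0.16 (adjusted p = 0.000645) and Thbs1 by 1.12 ± 0.11 (adjusted p = 0.00315). Fn1 fell by 1.05 ± 0.19 (adjusted p = 0.033) and Acta2 by 0.77 ± 0.13 (adjusted p = 0.0232). Both deficient pools on vegetable oil were above both on fish oil for each of the 4. The other contractile and pericyte genes did not pass, with Cnn1 at -0.43 ± 0.21 (adjusted p = 0.443) and Pdgfrb at -0.32 ± 0.14 (adjusted p = 0.384). In the same comparison 4 of 6 macrophage markers fell, namely Cd14 by 1.77 ± 0.15, Cd68 by 1.47 ± 0.20, Adgre1 by 1.07 ± 0.18 and Csf1r by 1.02 ± 0.20, and so did the platelet marker Pf4, by 0.92 ± 0.13. The part of those cells in the member differences was not tested. Sfrp2 was higher on fish oil in both pools, at 1.16 ± 0.26 (adjusted p = 0.0717). Tagln and Thbs1 passed with any 1 array left out, and the other 2 did not. Fitted on the arrays of these 2 groups alone, Tagln passed (adjusted p = 0.0431) and Thbs1, Fn1 and Acta2 did not (adjusted p = 0.0815, 0.208 and 0.151). The calls of Fn1 and Acta2 ended without deficient replicate 2, at -0.77 (adjusted p = 0.116) and -0.75 (adjusted p = 0.111). They ended without either control pool, at -1.05 (adjusted p = 0.0721) and -0.77 (adjusted p = 0.0551). Each time both genes stayed lower on fish oil. Without deficient fish oil replicate 1 they were at -0.91 (adjusted p = 0.213) and -0.89 (adjusted p = 0.0677), and without replicate 2 at -1.20 (adjusted p = 0.122) and -0.65 (adjusted p = 0.183). Fn1 ended without either control fish oil pool, at -1.05 (adjusted p = 0.0575), and Acta2 without deficient replicate 1, at -0.78 (adjusted p = 0.053).

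Against the necrotic kidneys, 25 of 29 members fell in the deficient fish oil kidneys, against 10.5% of all probe sets and 14.2% of named genes, and Sfrp2 rose, against 9.25% of all probe sets and 13.1% of named genes. The median was -1.34, against -0.01 over all probe sets. Vcan fell by 2.85 ± 0.32 (adjusted p = 0.000536), Col1a1 by 2.70 ± 0.20 (adjusted p = 8.51e-05) and Tagln by 2.66 ± 0.16 (adjusted p = 4.75e-05). Sfrp2 rose by 2.24 ± 0.26 (adjusted p = 0.000561). Sparc, Mfap4 and Eln did not pass, at -0.39 ± 0.12 (adjusted p = 0.0565), -0.33 ± 0.21 (adjusted p = 0.336) and -0.10 ± 0.16 (adjusted p = 0.751). Centring each array on its median moved the share of higher calls among all called probe sets from 46.9% to 60.4%, and 24 members fell under it. The call of Mfap5 ended after median centring (adjusted p = 0.0978), quantile normalization (0.105), cyclic loess (0.0764) and with a replicate block (0.0512), and that of Dcn in a fit of these 2 groups alone (0.0653). The calls of Mfap5, Dcn and Plod2 also ended with single pools left out. Without necrotic replicate 1 Mfap5 was at -0.68 (adjusted p = 0.111) and Dcn at -0.82 (adjusted p = 0.0743). Without necrotic replicate 2 Mfap5, Dcn and Plod2 were at -0.64 (adjusted p = 0.127), -0.80 (adjusted p = 0.0788) and -0.68 (adjusted p = 0.0952). All 3 stayed lower on fish oil. Without deficient fish oil replicate 1 they were at -0.81 (adjusted p = 0.0596), -0.52 (adjusted p = 0.118) and -0.95 (adjusted p = 0.0928). Without deficient fish oil replicate 2 Mfap5 was at -0.51 (adjusted p = 0.21) and Plod2 at -1.06 (adjusted p = 0.0667), and without either control pool Mfap5 was at -0.66 (adjusted p = 0.0639). This comparison and the others share groups, so their values are not independent.

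**Figure D4:**
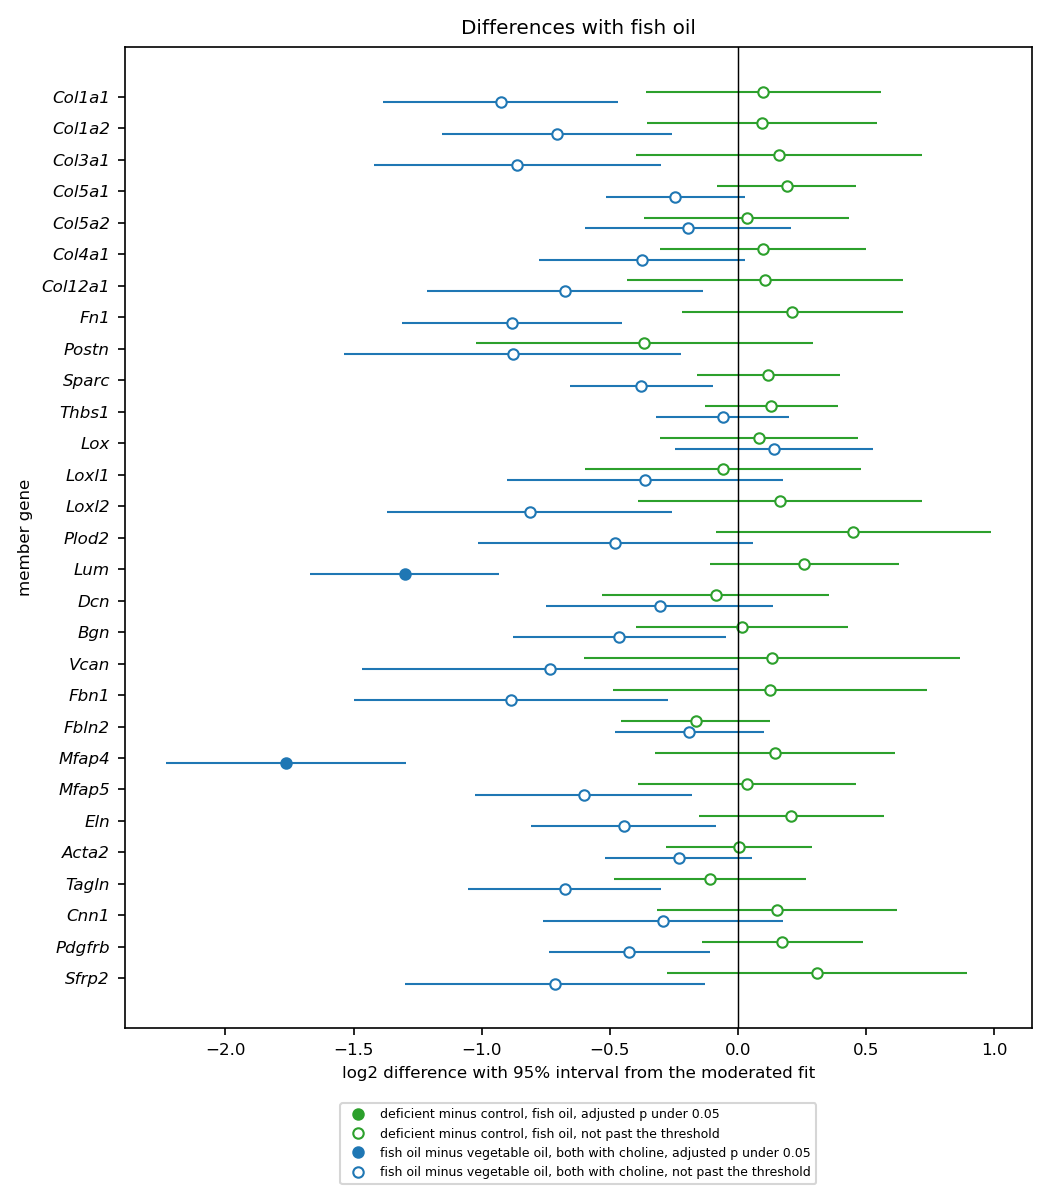
For each of the 29 genes the plot gives the log2 difference with its 95% interval (horizontal axis) for deficient minus control kidneys on fish oil (green) and for fish oil minus vegetable oil kidneys with choline (blue), with filled points past the threshold. The green points lie between -0.37 and 0.45 with none filled, and the blue points are negative for 28 genes, with Lum and Mfap4 filled.

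Related genes outside the 39 followed in part. Of 46 further matrix genes that were measured, 19 rose and 5 fell in necrotic against control kidneys (median 0.32), with Lamb3, a laminin chain, at 2.63 ± 0.31 and Aspn, asporin, at -1.66 ± 0.25. Of 26 genes of collagen folding and processing 15 rose and 1 fell (median 0.65), with Fkbp10, a collagen chaperone, at 1.89 ± 0.24 and P4ha2, a prolyl hydroxylase subunit, at 1.34 ± 0.13. Of 18 matrix receptors 9 rose and 1 fell (median 0.35), with Cd44, the hyaluronan receptor, at 2.48 ± 0.30 and Itga5, the fibronectin receptor chain, at 1.98 ± 0.21. Of 22 further contractile and mesenchymal genes 11 rose and 1 fell (median 0.74), with Des, desmin, at 2.16 ± 0.15 and Vim, vimentin, at 1.29 ± 0.13. These counts stand beside the 10.2% and 10.7% of all probe sets given above.

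In the deficient kidneys 1 of 46 further matrix genes rose and 1 fell, Ccn1 at 1.53 ± 0.18 and Egflam at -0.82 ± 0.15, against 0.893% of all probe sets higher and 0.236% lower. Ccn1 is a matricellular protein that is induced early after stress. Among the 22 contractile and mesenchymal genes Pdgfb, a ligand of Pdgfrb, rose by 1.17 ± 0.14 and Smtn, smoothelin, fell by 0.70 ± 0.10. The limma fit called 0 genes of collagen folding and 0 matrix receptors there, and on fish oil it called 0 genes of all 4 lists for choline deficiency. Between the oils in deficient kidneys, 3 of 46 further matrix genes, 1 of 18 receptors and 5 of 22 contractile and mesenchymal genes fell on fish oil, against 1.39% of all probe sets, with Ccn1 at -1.71 ± 0.18, Ccn2 at -1.42 ± 0.20, Pdgfb at -1.24 ± 0.14 and Des at -0.96 ± 0.15. These lists were not refitted with arrays left out.

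Markers of other cells moved with the matrix genes. In necrotic against control kidneys 5 of 6 macrophage markers rose, and in deficient against control kidneys Cd14 alone did, by 1.55 ± 0.15. Their mean log2 value per array was 9.87 and 9.88 in the necrotic pools, 8.43 and 8.85 in the deficient pools, 7.83 and 7.95 in the control pools and between 7.61 and 7.70 in the 4 fish oil pools. Adgre1 was the macrophage marker that did not rise. Of the tubule markers 4 of 5 for proximal tubule, 3 of 3 for thick ascending limb and 2 of 3 for collecting duct fell, and so did 2 of 3 podocyte and 3 of 5 endothelial markers. The mesenchymal markers split. For smooth muscle 2 rose and 1 fell of 5 measured, for mesangial cells and pericytes 2 rose and 1 fell of 5 (the member Pdgfrb being among the risers), and for fibroblasts 2 rose and 1 fell of 5. The mean log2 value of the fibroblast markers was 8.55 and 8.58 in the necrotic pools and 8.54 and 8.55 in the control pools. Of 2 platelet markers 1 rose, 1 of 5 adipocyte and 1 of 5 adrenal markers fell, and the limma fit called 0 of 4 urothelial markers. These values have no true 0, so no marker can be called absent. The part of these cell types in the matrix differences was not tested.

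**Figure D5:**
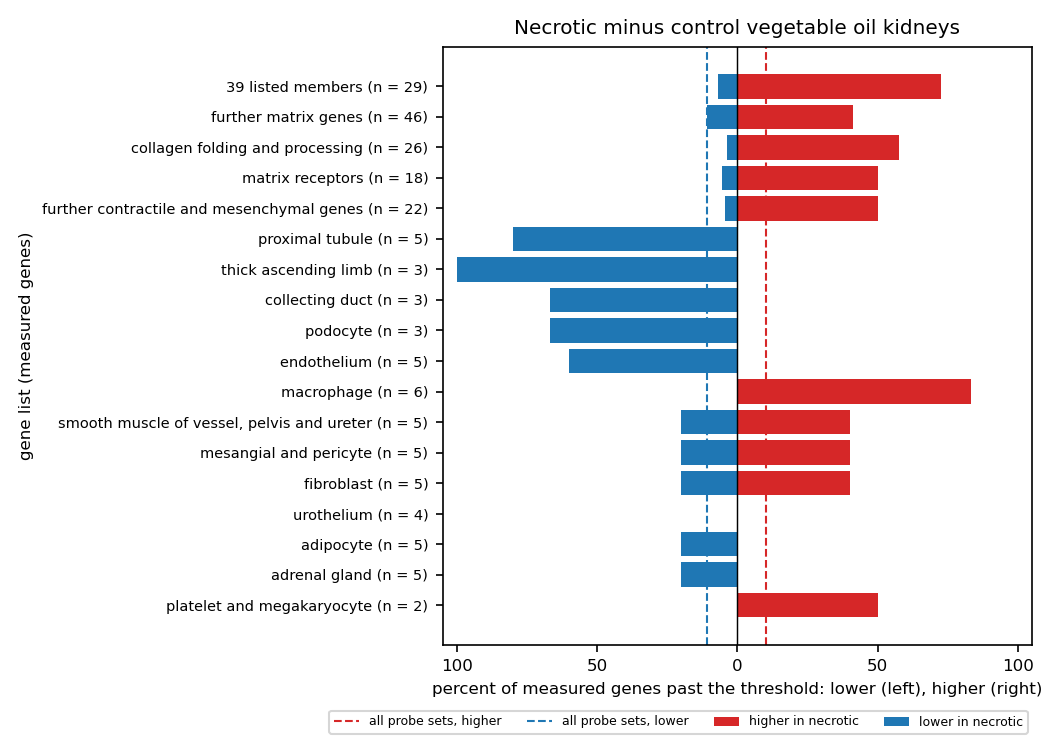
Bars give the percent of the measured genes of each list that passed the threshold in necrotic against control vegetable oil kidneys, higher to the right and lower to the left, with dashed lines at the 10.2% higher and 10.7% lower of all probe sets. The 29 measured genes of the 39 listed reach 72.4% higher and 6.9% lower, and the tubule lists lie on the lower side. Of named genes, which have no line, 13.3% were higher and 14.8% lower.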

How the data were processed

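Kidney RNA of 5 diet groups, 2 pools of 3 rats each, was measured on 10 single-colour arrays. The authors made the deposited log2 probe set values with RMA, as the submitters' processing notes name it. Which program and release ran RMA, and how probes were grouped into probe sets, is not given in the sources used here. RMA makes the value distributions of arrays alike, so a shift shared by most genes would not show. Scanner files were not used here. Log2 values were used as deposited, ran from 1.62 to 14.72 and were not filtered.

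Of 29214 probe sets 15633 are listed in the platform annotation, 15310 with 1 gene symbol and 323 with several. These 323 and the 13581 unlisted probe sets named no gene. Symbols were looked up by Entrez identifier in RefSeq for 15279 probe sets, and 31 kept the platform's symbol. Members and related lists were chosen with earlier results of these data known. Array values are given for each member past the threshold with a log2 difference of at least 1 in any comparison, and at most 4 genes of a related list are named per comparison.

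One limma model (limma 3.58.1, R 4.3.3, lmFit and eBayes, two-sided) covered all 10 arrays with group as the only term, 5 residual and 3.59 prior degrees of freedom. It gave 7 differences between groups and 2 interactions. It was tested on simulated data with 200 of 29214 probe sets changed 2-fold in the necrotic group. There it recovered 77.6% of them for necrotic minus control and 1.3% for the interaction with the necrotic kidneys. Nothing states that pools share animals or litters across groups, so p-values measure the spread between pools. The number of arrays limits the precision. Alternatives changed the normalization, the filter, the prior variance, the arrays fitted, a replicate block and the probe set rule, and left out each array. Promoter letters were searched in RefSeq windows of GRCr8, which is not the arrays' annotation.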

Additional observations from a re-analysis of the deposited data

Results flagged for a closer look

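In limma 13 members passed the interaction test that sets necrotic minus control on vegetable oil against deficient minus control on fish oil. Of these 11 were higher, against 3.82% of all probe sets and 5.32% of named genes. The other 2 were lower, against 4.9% of all probe sets and 7.59% of named genes. A positive value means a higher difference on vegetable oil. Among collagens these were Col1a1 at 1.78 ± 0.28 (adjusted p = 0.00771), Col1a2 at 1.65 ± 0.28 (adjusted p = 0.00966), Col5a1 at 0.78 ± 0.17 (adjusted p = 0.0245), Col5a2 at 1.32 ± 0.25 (adjusted p = 0.015) and Col12a1 at 1.73 ± 0.33 (adjusted p = 0.0164). The crosslinking enzyme Lox was at 2.42 ± 0.24 (adjusted p = 0.00114). The glycoproteins Fn1 and Thbs1 were at 1.18 ± 0.27 (adjusted p = 0.0295) and 1.28 ± 0.16 (adjusted p = 0.00283), and the proteoglycan Vcan was at 2.11 ± 0.46 (adjusted p = 0.0244). The contractile genes Acta2 and Tagln were at 0.93 ± 0.18 (adjusted p = 0.016) and 1.98 ± 0.23 (adjusted p = 0.00216). Negative values were found for Mfap4, at -1.43 ± 0.29 (adjusted p = 0.0195), and Sfrp2, at -2.95 ± 0.36 (adjusted p = 0.00269). Col1a1, Col1a2, Thbs1, Lox, Tagln and Sfrp2 alone passed in each refit with an array left out. The necrotic pools were set apart by their label, and no fish oil pool carries that label, so the necrotic state and the oil cannot be told apart in this contrast.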

How the results depend on the processing

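The 23 member calls of the comparison of necrotic with control kidneys, and the 26 of deficient fish oil with necrotic kidneys, moved by less than 1.5 times under each of the 19 alternatives. Over all members and comparisons 4691 of the recomputed values kept their side of the threshold, 66 newly passed and 175 no longer passed. Of the values called before or after, 0 changed sign, and the direction of values that passed in neither fit was not compared. Fitting only the groups compared gave 9 calls for necrotic minus deficient kidneys (20 before), 0 for control fish oil minus control kidneys (2 before) and 1 for deficient fish oil minus deficient kidneys (4 before). That fit has fewer arrays. Leaving out probe sets below the 50th percentile of the mean gave 1 call for control fish oil minus control kidneys, with 26 members tested. The interaction with the deficient kidneys had 0 calls, and 1 with median centring, 2 with probe sets below the 25th percentile left out, 2 with those below the 50th left out, 2 with a trended and robust prior and 3 with the mean of all probe sets of a gene, which leaves fewer tests. With each array left out in turn the calls ranged from 18 to 24 for necrotic minus control, 0 to 4 for deficient minus control, 9 to 20 for necrotic minus deficient, 0 to 2 for control fish oil minus control, 2 to 4 for deficient fish oil minus deficient, 23 to 26 for deficient fish oil minus necrotic and 6 to 13 for the interaction with the necrotic kidneys. A lone pool was then assumed to vary like the other groups. Deficient and control fish oil kidneys gave 0 calls under each of the 19 alternatives. With a replicate block the counts were 23, 4, 19, 0, 2, 5, 26, 16 and 0 in the order of the comparisons necrotic minus control, deficient minus control, necrotic minus deficient, deficient minus control on fish oil, control fish oil minus control, deficient fish oil minus deficient, deficient fish oil minus necrotic and the interactions with the necrotic and the deficient kidneys. Same-numbered pools of different groups correlated between -0.17 and 0.14 in their deviations, and not every pair was over 0.1, so the numbers were not taken to pair the pools. Among the 29 members replicate 2 was above replicate 1 for 26 in necrotic, 24 in deficient, 14 in control, 19 in deficient fish oil and 22 in control fish oil kidneys. Other causes of these shifts were not tested. With 2 pools per group, a difference that missed the threshold is not shown to be absent.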

Other observations

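The gap between the 2 pools of a group was wide for a few members. Vcan was 1.09 log2 units higher in deficient replicate 2 than in replicate 1, and Postn was 1.05 higher in necrotic replicate 2. Among the deficient fish oil pools the widest gap was 0.63, for Mfap4, and among the control fish oil pools 0.64, for Col3a1. The control pools were closest, with a widest gap of 0.32 for Lum. Of the fibroblast markers Dpt, which encodes the matrix protein dermatopontin, was lower in the necrotic pools, at 9.69 and 10.36 against 11.58 and 11.57 in the control pools. These genes were picked after their values had been seen.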
